A study of Homo sapiens with 8 samples.

Results

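MORF4L1, MORF4L2, SUPT16H and SSRP1 encode the MRG15 family and the 2 subunits of FACT, and the accessible regions at these 4 genes were examined in 8 ATAC-seq lists from U2OS cells, a human osteosarcoma line. In ATAC-seq the transposase Tn5 inserts adapters into open DNA, so that a region with many reads is accessible. The members were all distinct intervals that overlapped the annotated span of a gene extended by 10 kb on each side (GENCODE release 44, build hg38). They came to 150 of the 1440417 regions in the 8 lists, 89 at MORF4L1, 10 at MORF4L2, 11 at SUPT16H and 40 at SSRP1. Regions that shared at least 1 bp between libraries were joined into 55 union sites, of 548046 in the whole series.

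The groups were wild-type (WT) U2OS cells without UV, WT cells 3 h post UV, ASH1L-/- U2OS cells without UV and ASH1L-/- cells 3 h post UV, with 2 libraries each. The UV dose was 20 J/m2 of UV-C in both genotypes, and cells of every group were treated with DNase before tagmentation so that DNA from dying cells was degraded. The knockout was made with CRISPR/Cas9 and colonies were isolated, and the labels do not say how many clones were used. A difference between genotypes and a difference between clones therefore cannot be told apart. The libraries were numbered as biological replicates. The ASH1L promoter held a region in all 8 lists, at percentiles between 81.1 and 97.6 of the lists, which does not check the knockout, because the deleted exons lie elsewhere in the gene.

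MORF4L1 encodes MRG15, a chromodomain protein that reads methylated lysine 36 of histone H3, and MRG15 relieves the self-inhibition of the histone methyltransferase ASH1L. It also belongs to the TIP60 acetyltransferase and SIN3 deacetylase complexes. MORF4L2 encodes the related protein MRGX. SUPT16H and SSRP1 encode SPT16 and SSRP1, which together form FACT, a histone chaperone that loosens nucleosomes by handling H2A-H2B dimers during transcription, replication and repair. The study asked whether ASH1L with MRG15 opens chromatin after UV, and also examined FACT. The comparison here is of the accessibility at the genes that encode these factors.

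The start regions of 3 members are shown because their accessibility is described below, and MORF4L2 had no matching entry. Each is the RefSeq promoter of build GRCh38.p14, most of it before the start and 50 bases after it, written 5′ to 3′ on the strand of the gene. All 300 bases of each lay inside the promoter site of its gene. Capitals mark matches on either strand, where matches that touch may overlap. The letters searched were GGGCGG for the GC box, CCAAT for the box of that name, CCGGAAG for ETS factors, CACGTG for the E-box, TGACGTCA for the cyclic AMP response element, TATAAA for the TATA box, TGANTCA for AP-1 factors, GGAATG for TEAD factors and TGTGGT for RUNX factors.
MORF4L1, chr15:78872640-78872939, plus strand: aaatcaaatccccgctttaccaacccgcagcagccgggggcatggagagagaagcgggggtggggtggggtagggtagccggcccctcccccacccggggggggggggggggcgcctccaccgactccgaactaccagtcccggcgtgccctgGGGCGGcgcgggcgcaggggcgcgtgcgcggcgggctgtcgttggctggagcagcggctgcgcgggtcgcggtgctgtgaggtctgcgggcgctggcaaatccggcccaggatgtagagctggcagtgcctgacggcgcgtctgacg
SUPT16H, chr14:21383970-21384269, minus strand: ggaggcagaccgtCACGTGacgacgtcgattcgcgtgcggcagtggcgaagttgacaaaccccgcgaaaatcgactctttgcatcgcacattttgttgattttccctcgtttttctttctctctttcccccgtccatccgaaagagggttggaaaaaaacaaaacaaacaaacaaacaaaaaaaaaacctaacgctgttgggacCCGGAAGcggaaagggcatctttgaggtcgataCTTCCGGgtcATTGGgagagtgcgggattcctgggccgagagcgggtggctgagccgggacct
SSRP1, chr11:57335843-57336142, minus strand: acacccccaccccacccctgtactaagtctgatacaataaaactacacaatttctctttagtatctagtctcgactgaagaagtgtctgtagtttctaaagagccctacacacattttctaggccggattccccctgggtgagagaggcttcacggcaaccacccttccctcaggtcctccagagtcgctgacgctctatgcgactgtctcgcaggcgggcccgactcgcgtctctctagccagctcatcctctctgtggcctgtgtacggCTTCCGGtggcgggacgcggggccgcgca
The MORF4L1 promoter held 1 GC box, a motif found in 45.0% of the 35116 RefSeq promoters. It was rich in G and C, at 73.7% against a median of 58.7% over all promoters, and held 33 CpG dinucleotides against a median of 14. The SUPT16H promoter held 2 ETS matches (10.3% of promoters hold at least 1), 1 E-box (7.26%) and 1 CCAAT box (34.6%). The SSRP1 promoter held 1 ETS match. None of the 3 held a TATA box, which 11.5% of promoters do, and the ETS letters were held by both FACT subunit genes and not by MORF4L1 in this window. These are letter matches only.

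Every gene had a promoter site with a region in all 8 lists, and most other sites were called in a single library. A promoter site came within 1 kb of any annotated start of the gene, an internal site any other part of the gene span, and a flanking site the 10 kb beside it. Of the 55 sites, 8 had a region in all 8 lists, 15 in 2 to 7 lists and 32 in 1 list. Over all union sites of the series, 11.0% had a region in all 8 lists and 60.5% in 1 list. The 32 sites of a single list had percentiles between 3.50 and 41.2 in that list and summit pileups of 5 to 25 reads. The sites in all 8 lists had percentiles between 27.1 and 99.2 and pileups of 12 to 414 reads. In these bulk libraries, a site open in fewer cells and a site less open in every cell cannot be told apart. A site without a region in a list is one that the authors' peak caller did not call there, not one without reads.

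Fold enrichment, the deposited ratio of summit pileup to local background, was ranked within each list, and its percentile was the measure compared between groups. A percentile of 90 means that 90% of the regions of that list were weaker. Summit pileups in reads and the local background were recovered from the deposited fold enrichment and p-value. The lowest background of a list, which measures the depth of the library, lay between 1.39 and 5.87 reads, and the deepest and the shallowest library were the 2 replicates of unchallenged ASH1L-/- cells. The lists held 158198 to 220783 regions, with median widths of 242 to 291 bp without UV and 356 to 444 bp 3 h post UV. Between 77.4% and 94.2% of the regions of a list had a q-value below 0.05. Of 6 promoters of mesenchymal and osteoblast markers, 5 (RUNX2, COL1A1, SPARC, VIM and PRRX1) had a region in all 8 lists and TWIST1 in 2. Among the markers of other cell types reported here, CD3E had none, PTPRC and ALB had a region in 1 list each, CDX2 in 6, and EPCAM and GFAP in all 8, so that open promoters did not separate the marker lists.

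Among the 4 promoter sites, those of MORF4L2 and SUPT16H ranked highest. The mean percentile was 97.0 ± 1.88 at MORF4L2, 96.2 ± 2.44 at SUPT16H, 91.7 ± 2.01 at SSRP1 and 90.5 ± 5.36 at MORF4L1 (SD, n = 8 libraries of 4 groups). MORF4L2 was above SSRP1 in 8 of 8 lists and SUPT16H was above SSRP1 in 8 of 8. MORF4L2 exceeded SUPT16H in 5 of 8 lists and MORF4L1 exceeded SSRP1 in 6 of 8, so neither of these neighbouring pairs had a stable order. On the scale of pileup over the lowest background, MORF4L1 was instead above SSRP1 in 8 of 8 lists and above MORF4L2 in 4 of 8. Among the main promoter sites of 13272 protein-coding genes, the mean percentile of MORF4L2 was at or above that of 84.5% and SUPT16H of 80.1%. SSRP1 was at or above 60.8% and MORF4L1 56.6%.

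**Figure D1:**
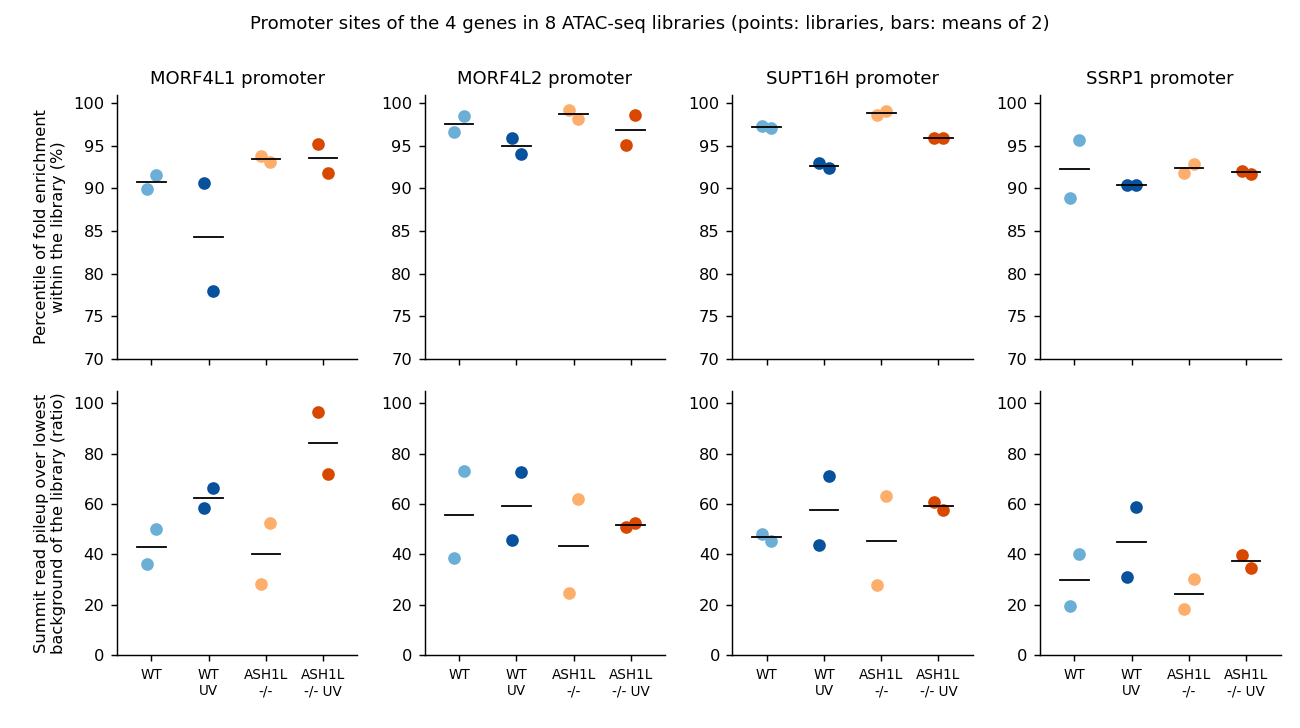
Promoter sites of the 4 genes by group, each point a library and each bar the mean of 2 libraries. The upper row gives the percentile of fold enrichment within the library in %, on an axis that starts at 70, and the lower row the summit read pileup divided by the lowest background of the library. The SUPT16H percentiles 3 h post UV, at 95.9 or below, lie under the unchallenged ones, at 97.1 or above.

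None of the 8 sites with a region in every list passed the test for UV, genotype or their interaction. The test was limma on the normal score of the percentile (the percentile expressed in SD of a normal distribution), fitted over all 60323 sites with a region in every list, with Benjamini-Hochberg adjustment over all of them and a threshold of 0.05. In that fit 2.53% of sites were higher and 3.30% lower after UV, 0.00166% were higher in ASH1L-/- cells, and 0% differed in their UV response. Of the 8 member sites, 3 had an unadjusted limma p below 0.05 for UV, 2 for genotype and 0 for the interaction, beside 26.0%, 9.62% and 2.91% of all sites. All 8 had a negative UV difference, as did 59.8% of all sites, with a median of -0.35 against -0.08. All 8 had a positive difference of ASH1L-/- minus WT, as did 57.9% of all sites, with a median of 0.18 against 0.04. These signs held for the percentile, which is relative to the other regions of a list. In log2 pileup over the lowest background 7 of the 8 UV differences were positive and 6 of the 8 genotype differences negative, as were 86.0% and 79.9% of all sites. In log2 fold enrichment 6 of 8 were positive for UV and 5 of 8 negative for genotype, as were 84.0% and 76.7% of all sites. The exact permutation test of 4 against 4 libraries, two-sided, cannot go below 0.0286, and 3 member sites reached that value for UV and 2 for genotype. Reaching it means that the groups do not overlap, which was so at 12.3% (lower) and 5.99% (higher) of all sites for UV and at 2.57% (higher in ASH1L-/- cells) and 1.51% (lower) for genotype. The distal internal site of MORF4L1 is among the 2 for genotype in both counts, and one of its values comes from a separate region, as described below. Adjusted limma p-values of the interaction were 1 at all 8 sites.

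**Figure D2:**
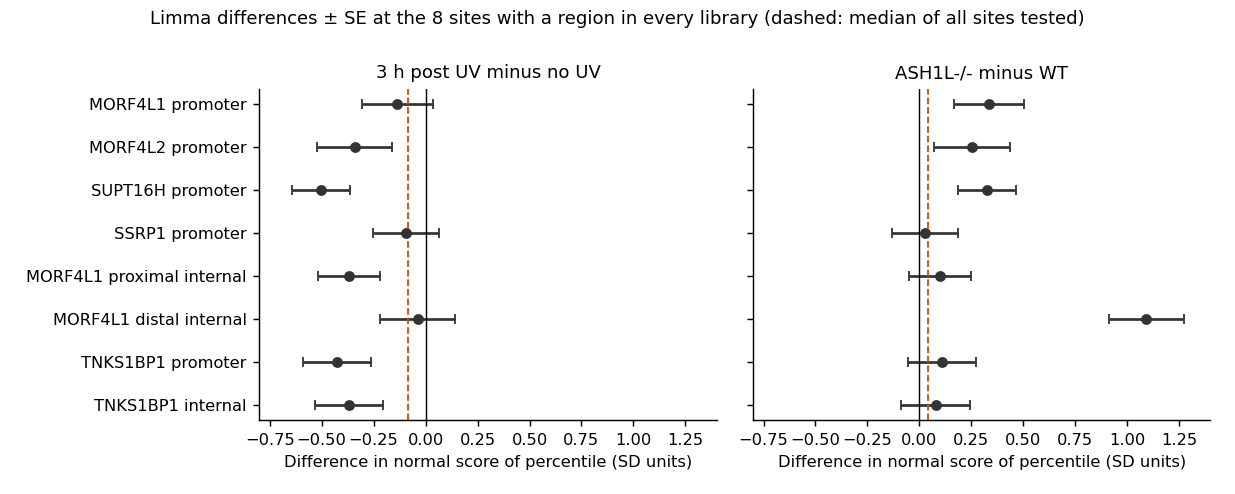
Limma differences with their SE, in SD units of the normal score, at the 8 sites with a region in every library, for UV (left) and genotype (right). Dashed lines mark the medians over all 60323 sites, -0.08 and 0.04. The MORF4L1 distal internal site lies apart on the genotype axis, at 1.09, with 1 WT value from a separate region, and SUPT16H is lowest on the UV axis, at -0.51.

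MORF4L1 (ENSG00000185787.15) spans chr15:78810487-78898139 on the plus strand, and its canonical transcript starts at 78872890. It had 43 union sites, of which 8 were promoter, 30 internal and 5 flanking sites, and 3 of them had a region in every list. Most of the span lies upstream of the canonical start and belongs only to longer annotated transcripts. The promoter site, chr15:78872626-78874009, overlapped an exon of the canonical transcript. Libraries made 3 h post UV are called irradiated. The percentile was 90.0 and 91.6 in the unchallenged WT libraries, 90.6 and 77.9 in the irradiated WT libraries, 93.8 and 93.2 in the unchallenged ASH1L-/- libraries, and 95.2 and 91.9 in the irradiated ASH1L-/- libraries. The 4 ASH1L-/- libraries lay above the 4 WT libraries, a pattern that 2.57% of all sites showed in that direction. The limma difference was 0.34 ± 0.17 (SE), adjusted p = 0.578. The UV difference was -0.14 ± 0.17, adjusted p = 0.646, and it rested on irradiated WT replicate 2, without which it was 0.00042.

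For reads at the MORF4L1 start the UV difference had the opposite sign. The summit pileup over the lowest background was 36.2 and 50.0 in the unchallenged WT and 28.1 and 52.5 in the unchallenged ASH1L-/- libraries. It was 58.5 and 66.6 in the irradiated WT and 96.4 and 72.1 in the irradiated ASH1L-/- libraries, all above the unchallenged ones. On this scale 17.1% of all sites lay higher in every irradiated library and 0.577% lower. The log2 difference was 0.84 ± 0.38 (SE), adjusted p = 0.112 by limma, against a median of 0.46 over all sites. The SE of this fit was the same at every member site, so it does not measure the spread at this one. The difference was positive at 86.0% of all sites. Local background at the promoter, the denominator of fold enrichment, was 3.09 to 4.07 times the lowest background in the unchallenged and 4.77 to 6.19 times in the irradiated libraries.

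The MORF4L1 promoter was called as 2 regions in each of the 4 unchallenged lists and as 1 continuous region in each of the 4 lists 3 h post UV, in both genotypes. Without UV, an upstream region began between positions -264 and -192 from the start and ended between 403 and 454, and a downstream region began between 536 and 607 and ended between 1049 and 1061. The gap was 81 and 191 bp in WT cells and 109 and 186 bp in ASH1L-/- cells. This form was noticed after the values had been seen. Among all 60323 sites, 0.103% had 2 or more regions in every unchallenged list and 1 region in every UV list, and 0.0647% the reverse. Both summits were present in all 8 libraries, at 122 to 134 and at 711 to 746 bases after the start. The downstream summit had a fold enrichment of 6.34 ± 0.464 without UV and 7.09 ± 1.06 with UV (SD, n = 4, p = 0.286, exact permutation test, two-sided). Its pileup was 64.0% ± 8.46 of that at the upstream summit without UV and 60.7% ± 16.9 with UV (p = 0.771, exact permutation test), a difference smaller than the spread between libraries. Its pileup over the lowest background was 43.0 ± 7.95 with UV and 26.2 ± 5.58 without, with no overlap (p = 0.0286, exact permutation test, not adjusted). At the strongest summit of each site, 17.1% of all sites likewise lay higher in every irradiated library on this scale. The difference is therefore not particular to the downstream summit.

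The covered length of the MORF4L1 promoter site is the sum of its called bases, so it does not measure this split separately. Bases in the gap, 81 to 191 bp, were left out of it in the unchallenged lists and counted in the irradiated lists. The covered length was 1060 to 1210 bp in the unchallenged libraries and up to 1322 bp in the irradiated libraries. Its means were 1128 ± 75 and 1288 ± 28.5 bp (SD, n = 4). The groups did not overlap, as at 12.8% of all sites in the direction of wider regions. The log2 difference was 0.19 ± 0.08 (SE), adjusted p = 0.295 by limma, against a median of 0.13 over all sites. No member site passed this test for UV or genotype, where 0.640% of all sites were wider and 0.0564% narrower after UV and 0% differed by genotype, and 1 member site had an unadjusted p below 0.05 in each, beside 18.2% and 7.18% of all sites. At 7 of the 8 sites the width difference with UV was positive, as it was at 76.2% of all sites. Regions were wider in the UV lists as a whole. At the MORF4L1 promoter the outer ends of the called bases overlapped between the groups. Without UV the first base lay between positions -264 and -192 and the last between 1049 and 1061. With UV the first lay at -203 or -202 and the last between 1056 and 1119. A difference in these ends was not tested.

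**Figure D3:**
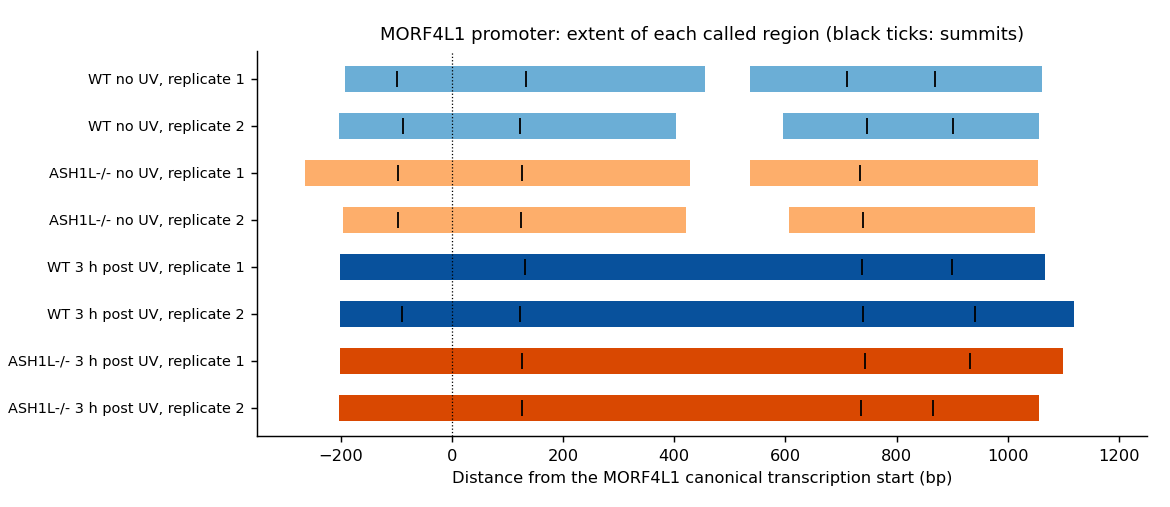
Extent of each called region at the MORF4L1 promoter in the 8 libraries, as distance in bp from the canonical transcription start, with black ticks for summits. The 4 unchallenged libraries show 2 bars with a gap of 81 to 191 bp, and the 4 libraries 3 h post UV show 1 bar each.

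The distal internal site of MORF4L1, chr15:78840599-78841661, was the member with the largest difference in percentile between genotypes. It lies 31.8 kb upstream of the canonical start, with no other annotated start within 1 kb, and overlaps an exon of a longer MORF4L1 transcript. The site is a union of neighbouring regions. In 7 of the 8 libraries the strongest region shared bases with the one at chr15:78840602-78841131, and in unchallenged WT replicate 1 the single region lay beside it, at chr15:78841320-78841661, and overlapped no other WT region. That library is joined to the site through ASH1L-/- regions alone, so it had no called region over the shared bases. Of all 60323 sites, 3.66% likewise had no base covered in all 8 libraries, and the other 7 member sites did have one.

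Over the shared bases the percentile was 51.2 in unchallenged WT replicate 2 and 34.8 and 44.7 in the irradiated WT libraries. It was 82.4 and 79.0 in the unchallenged ASH1L-/- libraries and 75.1 and 80.3 in the irradiated ASH1L-/- libraries. Every ASH1L-/- library was thus above these 3 WT libraries, with means of 79.2 ± 3.06 (SD, n = 4) and 43.6 ± 8.28 (SD, n = 3). Summit pileups were 12, 13 and 16 reads in the WT and 58, 26, 41 and 48 reads in the ASH1L-/- libraries. Divided by the lowest background they were 6.45 ± 0.973 and 16.0 ± 4.10. The fold enrichment was 3.66 ± 0.742 and 6.43 ± 1.26, and the covered length 421 ± 51.2 bp and 643 ± 151 bp. All of these measures had the same sign, and they are given as a description.

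The fit over all 8 libraries used the separate region, at a percentile of 27.1 and 12 reads, as the value of unchallenged WT replicate 1. It gave a difference of 1.09 ± 0.18 (SE) with an adjusted limma p of 0.121, which did not pass. Without that library, where all values lie over the shared bases, the difference was 0.93. With all 8 libraries the adjusted limma p was 0.0160 in percentiles among the sites of all 8 lists. There 0.269% of all sites passed as higher and 0.247% as lower in ASH1L-/- cells. In pileup over the lowest background it was 0.0542, where 0.153% of all sites passed as higher and 0.938% as lower. The genotypes did not overlap on that scale, as at 0.323% (higher) and 4.93% (lower) of all sites. In fold enrichment the adjusted limma p was 0.212. These values of all 8 libraries rest on the separate region. The site also entered the fit through ASH1L-/- regions, so none of these p-values tests the shared bases. Its window of 201 bases around the summit of the ASH1L-/- library with the highest percentile is shown because this is the site where the genotypes lay farthest apart. Summits of 6 of the 8 libraries lay within that window, and that of unchallenged WT replicate 1 lay 736 bases from its centre.
MORF4L1 distal internal site, chr15:78840632-78840832 (hg38, plus strand): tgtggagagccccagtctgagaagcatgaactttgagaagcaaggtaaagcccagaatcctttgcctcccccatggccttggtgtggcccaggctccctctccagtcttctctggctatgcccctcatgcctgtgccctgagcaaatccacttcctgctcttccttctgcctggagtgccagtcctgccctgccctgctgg
None of the motifs listed above matched in it, and it held 0 CpG dinucleotides. Of the summit windows of all 60323 sites, 23.2% held the AP-1 letters and 17.0% the RUNX letters.

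The proximal internal site of MORF4L1, chr15:78859343-78861041, lies 12.7 kb upstream of the canonical start and overlaps no annotated exon of the gene. It was the widest member, with 1394 to 1683 bp covered and 5 to 7 summits in each library. Its percentile was 88.7 and 91.2 in the unchallenged WT and 94.9 and 90.5 in the unchallenged ASH1L-/- libraries. It was 83.3 and 85 in the irradiated WT and 84.0 and 84.8 in the irradiated ASH1L-/- libraries. All UV libraries were therefore below all unchallenged libraries, as at 12.3% of all sites, and the opposite pattern was the rarer one. The means were 84.3 ± 0.807 and 91.3 ± 2.61 (SD, n = 4), with a limma difference of -0.37 ± 0.15 (SE) and adjusted p = 0.156. The pileup over the lowest background was 37.3 ± 9.52 with UV and 38.3 ± 12.4 without (p = 0.886, exact permutation test), a log2 difference of -0.01 where the median of all sites was 0.46.

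Of the remaining 40 MORF4L1 sites, 29 had a region in a single list. In ADAMTS7, a secreted metalloprotease gene at the upstream end of MORF4L1, a flanking site at chr15:78808440-78808973 had a region in 7 of 8 lists, at percentiles between 9.5 and 70.8. An internal site at chr15:78811641-78811905, within 1 kb of an ADAMTS7 start, had a region in 3 of 4 ASH1L-/- lists and 0 of 4 WT lists. How common this pattern is among all union sites was not counted. The number of regions over MORF4L1 was 9, 10, 12 and 8 in WT and 17, 11, 11 and 11 in ASH1L-/- libraries. The groups overlapped (means of 9.75 ± 1.71 and 12.5 ± 3.00, SD, n = 4, p = 0.2, exact permutation test). The highest count, 17, came from the deepest library.

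**Figure D4:**
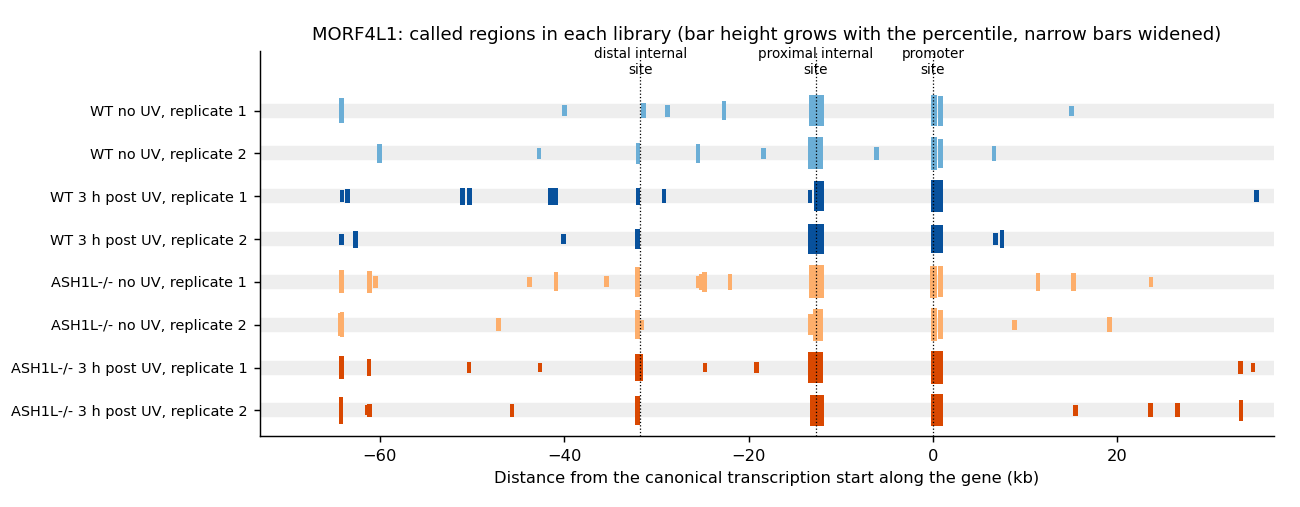
Called regions over MORF4L1 in each library, by distance in kb from the canonical start, with taller bars for higher percentiles and narrow bars widened to be seen. The promoter and proximal internal sites are tall in all 8 rows, and the distal internal site is taller in the 4 ASH1L-/- rows than in the 4 WT rows, of which that of unchallenged replicate 1 shows the separate region.

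MORF4L2 (ENSG00000123562.18, chrX:103675496-103688158, minus strand) had 2 sites, both at its start, and no internal or flanking site. The promoter site, chrX:103686510-103687425, also overlaps the antisense gene MORF4L2-AS1 and lies within 1 kb of a start of it. Accessibility cannot be assigned to either gene. Its percentile was 96.7 and 98.5 in the unchallenged WT libraries, 95.9 and 94.0 in the irradiated WT libraries, 99.2 and 98.2 in the unchallenged ASH1L-/- libraries, and 95.1 and 98.6 in the irradiated ASH1L-/- libraries. The groups overlapped in both comparisons. The UV difference was -0.34 ± 0.18 (SE, adjusted p = 0.266) and the genotype difference 0.25 ± 0.18 (adjusted p = 0.712). It had 1 summit in 7 of 8 libraries, with 825 to 908 bp covered. The second site, chrX:103687859-103688100, had a region in 1 unchallenged and 1 UV library of WT cells and in no ASH1L-/- library.

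SUPT16H (ENSG00000092201.10, chr14:21351476-21384019, minus strand), the gene of the large FACT subunit, had a single site in its whole window. The site, chr14:21383366-21384699, overlapped an exon of the canonical transcript. It also overlaps the lncRNA ENSG00000260830 and lies within 1 kb of a start of it. Its percentile was 97.4 and 97.1 in the unchallenged WT and 98.6 and 99.1 in the unchallenged ASH1L-/- libraries. It was 92.9 and 92.4 in the irradiated WT and 95.9 and 95.9 in the irradiated ASH1L-/- libraries. All 4 UV libraries were lower than all 4 unchallenged libraries, as at 12.3% of all sites, with means of 94.3 ± 1.89 and 98 ± 0.951 (SD, n = 4). The limma difference was -0.51 ± 0.14 (SE) with an unadjusted p of 0.00533 and an adjusted p of 0.0657, which did not pass. Over the alternatives the adjusted p lay between 0.0657 and 0.826.

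The SUPT16H value depended on the scale. Its fold enrichment was 14.4 ± 1.39 with UV and 15.1 ± 1.79 without (SD, n = 4, p = 0.629, exact permutation test), a log2 difference of -0.06 where the median of all sites was 0.33. Its pileup over the lowest background was 58.3 ± 11.2 with UV and 46.1 ± 14.6 without, a log2 difference of 0.38 ± 0.38 (SE, limma adjusted p = 0.50) where the median was 0.46. The irradiated libraries thus had lower SUPT16H percentiles, and their mean pileup was not lower. Within WT cells the percentile mean was 97.3 ± 0.152 without and 92.7 ± 0.411 with UV, and within ASH1L-/- cells 98.8 ± 0.397 and 95.9 ± 0.0209 (SD, n = 2). The difference between these UV differences was -0.07 ± 0.28 in normal score (SE, limma adjusted p = 1). By genotype, the percentile was 97.4 ± 1.72 in ASH1L-/- and 95.0 ± 2.66 in WT cells (limma 0.32 ± 0.14, adjusted p = 0.506).

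The SUPT16H promoter was the only other member promoter that was split in some lists. It was called as 2 regions in 1 library of each group except ASH1L-/- cells 3 h post UV, so the split did not follow UV. The summit of the stronger region lay between positions -181 and -156 from the canonical start in all 8 libraries. That position falls in the printed promoter between the E-box and the ETS matches.

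SSRP1 (ENSG00000149136.9, chr11:57325986-57335892, minus strand) is the gene of the small FACT subunit, which carries an HMG box. At its promoter site, chr11:57335666-57336254, the percentile was 88.9 and 95.6 in the unchallenged WT libraries, 90.4 and 90.4 in the irradiated WT libraries, 91.8 and 92.9 in the unchallenged ASH1L-/- libraries, and 92.1 and 91.7 in the irradiated ASH1L-/- libraries. The unchallenged WT libraries held both the lowest and the highest value. Neither UV (-0.10 ± 0.16, SE, adjusted p = 0.737) nor genotype (0.03 ± 0.16, adjusted p = 0.972) passed. The covered length was 443 to 474 bp without UV and 513 to 563 bp with UV, and these groups did not overlap, as at 12.8% of all sites in the wider direction. The log2 difference in width was 0.22 ± 0.07 (SE) where the median of all sites was 0.13, the largest among the members, with adjusted p = 0.197 by limma. Beside the promoter site, SSRP1 had a site in its first part, chr11:57335189-57335413, with a region in 2 irradiated lists, and a site at an internal start, chr11:57330323-57330472, with a region in 1 list.

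SSRP1 is flanked by TNKS1BP1, the gene of a tankyrase-binding protein, and by P2RX3, which encodes an ATP-gated ion channel of sensory neurons. The TNKS1BP1 promoter site, chr11:57324888-57325521, is also within 1 kb of a start of ENSG00000254662. This site and a second site inside TNKS1BP1 near another of its annotated starts, chr11:57321852-57322956, had a region in all 8 lists. Their summit pileups were 2.63 and 2.81 times that of the SSRP1 promoter (medians over 8 libraries) and higher in 8 of 8 libraries. Their percentiles, 72.7 to 93.6 and 80.0 to 96.1, overlapped that of the SSRP1 promoter. The local background was a median of 8.88 and 9.02 times the lowest background there and 2.33 times at the SSRP1 promoter. The TNKS1BP1 promoter percentile was 81.9 ± 6.18 with UV and 91.0 ± 2.22 without (SD, n = 4), with no overlap between the groups, as at 12.3% of all sites. The limma difference was -0.43 ± 0.16 (SE, adjusted p = 0.142). Its pileup over the lowest background had the opposite sign, at 101.9 ± 17.5 with UV and 73.2 ± 35.3 without (p = 0.2, exact permutation test). At the inner site the groups overlapped (-0.37 ± 0.16, adjusted p = 0.195).

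A site in P2RX3, 6.61 kb upstream of the SSRP1 start, was the single member site that separated UV from no UV by presence. At chr11:57342271-57342729 it had a region in all 4 UV lists and in 0 of the 4 unchallenged lists, as did 0.686% of all union sites. The reverse was seen at 0.0967% of union sites and at 0 of the 55 member sites. Its percentiles were 40.9 and 52.6 in the irradiated WT and 27.8 and 26.1 in the irradiated ASH1L-/- libraries, with summit pileups of 16, 31, 16 and 17 reads. The 40.9 of irradiated WT replicate 1 came from a region that shared no base with the ASH1L-/- regions. Another region of that library did share bases with them, at a percentile of 18.7 and 13 reads. The genotypes therefore had no stable order over the shared bases. These are weak regions compared with the promoters. No member site separated the genotypes by presence, where 0.186% of union sites had regions in all ASH1L-/- lists alone and 0.0768% in all WT lists alone. Short of separation, another P2RX3 site, chr11:57345630-57346002, had a region in 4 of 4 ASH1L-/- lists and 1 of 4 WT lists. The internal MORF4L1 site close to an ADAMTS7 start had one in 3 of 4 and 0 of 4. The share of all union sites with such partial patterns was not counted, so neither is read as a difference between genotypes. The window of 201 bases around the summit of the strongest region of the UV site is shown because it is the member called in UV lists alone.
P2RX3 site beside SSRP1, chr11:57342485-57342685 (hg38, plus strand): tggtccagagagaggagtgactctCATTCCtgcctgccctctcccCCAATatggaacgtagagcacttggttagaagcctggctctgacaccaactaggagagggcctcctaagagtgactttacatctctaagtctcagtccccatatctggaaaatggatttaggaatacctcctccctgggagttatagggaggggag
It held 1 match to the TEAD letters and 1 to the CCAAT box, which 17.6% and 24.0% of the summit windows of all 60323 sites hold. Summits of the 4 libraries lay between positions -199 and 47 from its centre.

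Through such weak regions, SSRP1 was the gene whose number of regions separated UV from no UV. It had 3, 4, 4 and 4 regions in the unchallenged libraries and 7, 5, 6 and 7 in the UV libraries, with means of 3.75 ± 0.50 and 6.25 ± 0.957 (SD, n = 4). The exact permutation test gave p = 0.0286, and 1 after Benjamini-Hochberg adjustment over 19458 protein-coding genes. Of these genes 1.23% had more regions in every UV library and 1.16% fewer. The separation came from the flanks, since it was lost with 5 kb on each side or with the gene span alone. Every UV count includes the P2RX3 site called in UV lists alone, and no unchallenged count does. The separation by number is therefore not a result apart from the presence of that site. MORF4L1, MORF4L2 and SUPT16H did not separate by UV, and no member separated by genotype, as 1.71% (more in ASH1L-/- cells) and 1.69% (fewer) of genes did.

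**Figure D5:**
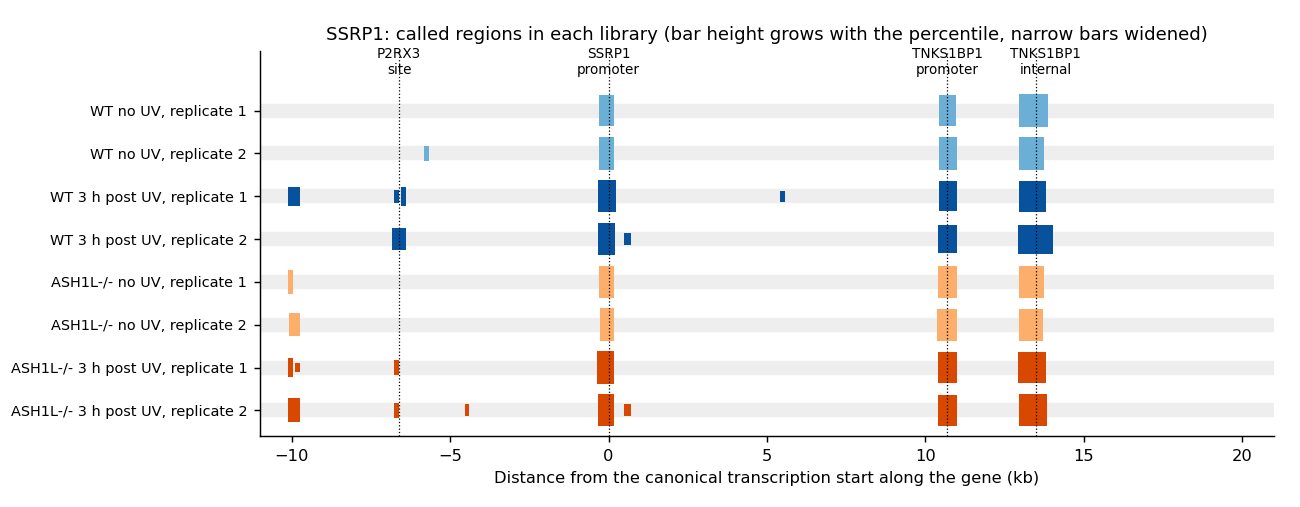
Called regions over SSRP1 and its flanks in each library, by distance in kb from the SSRP1 start along the gene, with taller bars for higher percentiles and narrow bars widened to be seen. The SSRP1 promoter and both TNKS1BP1 sites are present in all 8 rows, and the P2RX3 site in the 4 rows of cells 3 h post UV.

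The genes of the complexes around MRG15 and ASH1L, and of other histone chaperones, were compared at their main promoter sites. Of 29 genes of the ASH1L, TIP60, SIN3 and related MRG15 complexes, 26 had a promoter site in all 8 lists, and MRGBP, SIN3B and KDM5B did not, with a promoter region in at most 1, 6 and 2 lists. All 20 genes of the chaperone list had one. That list is broad, and SUPT5H, SUPT4H1 and HMGB1 in it are not histone chaperones in the strict sense. None of these 46 promoters passed the limma test for UV or genotype, where 0.505% of the main promoter sites of 13272 protein-coding genes were higher and 2.22% lower after UV and 0% differed by genotype. Unadjusted limma p-values below 0.05 for UV were found at 7 of 26 and 8 of 20, and for genotype at 1 of 26 and 1 of 20, beside 25.2% and 4.47% of all main promoter sites. The median UV difference was -0.26 in the complexes and -0.31 in the chaperone list, beside -0.24 at the 4 member promoters and -0.21 at all main promoter sites. It was negative at 22 of 26, 19 of 20, 4 of 4 and 78.1% of them. The negative sign was thus shared by most promoters.

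The partner promoters with the largest UV differences did not pass. They were DAXX, a chaperone of histone H3.3 (-0.64 ± 0.16, SE, adjusted p = 0.0525), and ASF1B, a chaperone of H3-H4 (-0.63 ± 0.16, adjusted p = 0.0552). The TIP60 subunit gene MEAF6 followed (-0.61 ± 0.16, adjusted p = 0.0541), and then NAP1L1 (-0.53) and HIRA (-0.53). SUPT16H, at -0.51, lay close to these. For genotype, the largest differences were VPS72 (-0.41 ± 0.18), HMGB1 (0.40 ± 0.17), RUVBL1 (-0.34 ± 0.21), NAP1L1 (0.33 ± 0.16) and KDM5A (-0.30 ± 0.16), with adjusted p-values of 0.489 or above. With percentiles among the sites of all 8 lists, 3 of the 46 promoters were lower after UV, where 5.61% of all sites were lower and 7.24% higher. With log2 fold enrichment 1 of the 46 was higher, where 17.3% of all sites were higher and 0.630% lower. With log2 pileup 1 was higher, where 16.0% were higher and 1.04% lower.

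Genes whose promoter percentile followed each member over the 8 libraries were found by Pearson's r of the normal scores, as a description. The closest to SUPT16H were RNF216 (0.99), AMMECR1L (0.98) and SYNJ1 (0.98), and to MORF4L1 TIMM17A, MGLL and SEC61A1 (0.96 each). MGLL and SEC61A1 had the same r, 0.962074, so they may stand for 1 shared promoter site. MORF4L2 was followed by NCK1, LYPD6 and ZNF500 (0.96 each) and SSRP1 by CCDC40 (0.94), LHPP (0.92) and SF3A3 (0.92). These were the highest of 13272 genes over 8 points that share 4 conditions. Between the members, r was 0.70 for MORF4L2 with SUPT16H and 0.57 for MORF4L1 with SUPT16H. The FACT subunits had 0.32 with each other, and MORF4L1 had 0.49 with MORF4L2 and 0.33 with SSRP1.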

How the data were processed

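Chromatin accessibility was profiled by Omni-ATAC-seq in 8 U2OS libraries, 2 per group, grouped by their titles. According to the submitters' processing notes and the methods, the authors used cutadapt 1.9.1, Bowtie2 2.4.5 (hg38 without chromosome Y), SAMtools 1.7, bedtools 2.29.2 and Picard, and called peaks per library with MACS2 2.2.7.1. Duplicates and poorly mapped, blacklisted or mitochondrial reads were removed. Each deposited list gave, per region, a fold enrichment (a ratio of pileup to local background), a −log10 p-value, a −log10 q-value, and a score that was not used further. None was normalised between libraries. A deposited fold enrichment measures a region against its surroundings, so high local background lowers it.

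A region was a distinct interval, with the record of highest fold enrichment. Whole-number summit pileups and local backgrounds were solved from fold enrichment and p-value for 100% of regions. Promoter sites lay within 1 kb of a start of any annotated transcript, and the main one had the highest mean percentile among those in all 8 lists. The annotation was GENCODE release 44. Normal scores of percentiles and log2 covered lengths were fitted with limma 3.58.1 in R 4.3.3, with 4 group means over all 60323 sites, and the fit was tested on simulated data. P-values from limma were adjusted by Benjamini-Hochberg. Single values were also tested by an exact permutation test over the 70 assignments of 4 against 4 libraries. Permutation p-values measure the spread between the libraries, and limma p-values use a spread shared in part over all sites. In the pileup fit the SE was 0.378 at every member site, so it does not measure the spread at a single site. All sites of the 4 genes were reported. For the partner lists, up to 5 genes with the largest differences per contrast were named, and 3 genes of highest r per member. The members and lists were chosen with earlier results of these data known. Alternatives were other filters on the q-value, overlaps, scales, flanks and promoter windows, a replicate block, and leaving out each library. Read counts were not used here, so no count model was fitted.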

Additional observations from a re-analysis of the deposited data

How the results depend on the processing

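Direction and call were unchanged at 48 of 58 recomputed counts and at 66 of 94 recomputed site differences with all 8 libraries, and at 83 of 88 counts and 120 of 128 differences without 1 library. The limits are 2 libraries per group, uneven depth and lists cut at a p-value of 0.01, and the causes of the changes below were not tested except where the setting itself gives one.

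The P2RX3 site was not counted as separating UV with no flank or 5 kb on each side (0 sites each), which leave it out of the window, or when a region had to cover at least 50% of the union site (0), an alternative chosen after seeing the data. Requiring 50% of the shorter interval changes nothing, as every region lies inside its union site. Leaving out 1 library gave 0 to 1 sites that separated the genotypes, the 1 site being in P2RX3 without irradiated (3 h post UV) WT replicate 1 and beside ADAMTS7 without replicate 2 of the unchallenged ASH1L-/- cells. Regions per gene separated UV at 0 genes with no flank and 0 with 5 kb on each side, and separated the genotypes at 0 to 1 genes (MORF4L1 without irradiated WT replicate 1). By genotype, 1 site passed in percentiles among the sites of all 8 lists, where the distal MORF4L1 site, with 1 WT value from a separate region, had a difference of 1.49, and 0 to 1 passed without 1 library, where it ranged from 0.93 to 1.25. Of the partner promoters, 3 passed for UV in those percentiles, 1 in fold enrichment and 1 in pileup (both higher), 1 with starts within 2 kb, and 0 to 1 without 1 library (1 without replicate 2 of the unchallenged WT cells).

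Direction turned mostly on the scales that shift all sites. With log2 fold enrichment the UV difference was 0.36 at the distal and 0.035 at the proximal internal MORF4L1 site, 0.27, 0.050 and 0.34 at the MORF4L1, MORF4L2 and SSRP1 promoters, and 0.045 inside TNKS1BP1. With log2 pileup it was 0.055 at the distal site, 0.84, 0.27, 0.38 and 0.63 at the MORF4L1, MORF4L2, SUPT16H and SSRP1 promoters, 0.65 inside TNKS1BP1 and 0.61 at its promoter. The genotype difference with fold enrichment was -0.11 at the proximal site, -0.0050 at MORF4L2, -0.14 and -0.11 inside TNKS1BP1 and at its promoter, and -0.18 at SSRP1. With pileup it was -0.092, -0.30, -0.036, -0.50, -0.48 and -0.23 at the proximal site, MORF4L2, SUPT16H, both TNKS1BP1 sites and SSRP1. With q-values below 0.05 the distal site had a UV difference of 0.19, with q-values of 0.01 or below SSRP1 had 0.034, and in percentiles among shared sites SSRP1 had a genotype difference of -0.0085. Without 1 library the UV difference ranged from -0.20 to 0.12 at the distal site, from -0.27 to 0.00042 at the MORF4L1 promoter and from -0.22 to 0.027 at SSRP1, and the genotype difference from -0.0092 to 0.17 inside TNKS1BP1 and from -0.094 to 0.15 at SSRP1.

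Replicates with the same number did not deviate together (correlations of -0.11 to 0.14 over 6 pairs of groups), so they share only a number. With the replicate block 0 member sites passed for UV, genotype, interaction or width, and 0 partner promoters, as without it.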
